A study of Homo sapiens with 6 samples.

Results

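Kinesin motor genes were taken as every gene whose annotated symbol is KIF or KIFC followed by digits and at most 1 letter, with antisense genes left out. This gave 41 genes, read by 85 probe sets, among 20875 gene entries on the array. None of these probe sets was annotated to several genes (0 of 85). Each gene was represented by its brightest probe set, averaged across the 6 arrays. KIF4B and KIF28P, which were written into the classes below, are not analysed here. By textbook role 14 genes were classed as mitotic, 15 as transport and 12 as other kinesins.

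The cells were HCT116, an epithelial line from a human colorectal carcinoma. They had been transfected either with a mix of 30 nM siRNA pool against CDK4 and 30 nM siRNA against CDK6 (the CDK4/6 siRNA group, 3 arrays), or with 30 nM each of a non-targeting pool and a negative control siRNA (the control siRNA group, 3 arrays). Total RNA was taken 96 h after transfection, and per the labels the population was kept in exponential growth. The arrays are labelled as biological replicates without a statement that they came from separate cultures, so the p-values rest on array-to-array spread, which may be technical.

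Kinesins are motor proteins that use ATP to walk along microtubules or to take subunits off microtubule ends. Mitotic kinesins build the spindle, move chromosomes and divide the cell, and their genes are expressed mostly late in the cell cycle. Transport kinesins carry vesicles, organelles and ciliary cargo, and their main roles are not tied to mitosis. CDK4 and CDK6 phosphorylate the retinoblastoma protein in G1, and the promoters of many late cell-cycle genes carry a short element named the CHR, bound by complexes that share the MuvB core, often beside CCAAT boxes bound by NF-Y.

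The upstream sequences of 3 pairs of mitotic kinesins are printed because in each pair a gene that fell stands beside a relative or partner that did not pass the test. They are the 250 bases before the annotated start in RefSeq on GRCh38.p14, written 5′ to 3′ on the gene's strand. Capitals mark matches to the CHR (TTTGAA or TTCGAA), to an E2F site (TTTGGCGC, TTTCCCGC or GGCGGGAA) or to the CCAAT box (CCAAT), each searched on both strands.
KIF20A, chr5:138178862-138179111, plus strand: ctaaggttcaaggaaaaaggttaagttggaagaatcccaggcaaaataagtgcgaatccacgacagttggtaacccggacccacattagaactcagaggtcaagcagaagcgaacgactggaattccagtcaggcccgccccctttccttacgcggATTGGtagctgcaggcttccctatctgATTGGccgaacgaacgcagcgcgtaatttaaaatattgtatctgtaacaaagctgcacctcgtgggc
KIF20B, chr10:89701340-89701589, plus strand: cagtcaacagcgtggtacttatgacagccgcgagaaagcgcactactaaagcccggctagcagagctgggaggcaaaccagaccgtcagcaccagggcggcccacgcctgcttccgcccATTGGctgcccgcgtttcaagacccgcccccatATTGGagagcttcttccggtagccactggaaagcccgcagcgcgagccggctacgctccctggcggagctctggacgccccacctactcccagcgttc
KIF18B, chr17:44947774-44948023, minus strand: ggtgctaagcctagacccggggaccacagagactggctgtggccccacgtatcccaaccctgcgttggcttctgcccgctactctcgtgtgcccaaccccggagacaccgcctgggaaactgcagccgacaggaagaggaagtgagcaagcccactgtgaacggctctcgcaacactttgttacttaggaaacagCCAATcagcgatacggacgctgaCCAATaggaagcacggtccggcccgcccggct
KIF18A, chr11:28108157-28108406, minus strand: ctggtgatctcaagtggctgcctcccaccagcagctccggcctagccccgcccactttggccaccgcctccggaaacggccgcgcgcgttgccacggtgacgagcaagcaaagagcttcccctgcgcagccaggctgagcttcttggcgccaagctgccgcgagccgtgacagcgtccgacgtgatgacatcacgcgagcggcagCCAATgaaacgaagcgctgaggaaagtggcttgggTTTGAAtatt
KIF15, chr3:44761544-44761793, plus strand: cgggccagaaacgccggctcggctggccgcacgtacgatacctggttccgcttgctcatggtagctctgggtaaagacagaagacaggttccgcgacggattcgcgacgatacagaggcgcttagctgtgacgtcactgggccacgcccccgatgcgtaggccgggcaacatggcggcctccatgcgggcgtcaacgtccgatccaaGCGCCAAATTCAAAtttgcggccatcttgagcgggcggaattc
KIF11, chr10:92592880-92593129, plus strand: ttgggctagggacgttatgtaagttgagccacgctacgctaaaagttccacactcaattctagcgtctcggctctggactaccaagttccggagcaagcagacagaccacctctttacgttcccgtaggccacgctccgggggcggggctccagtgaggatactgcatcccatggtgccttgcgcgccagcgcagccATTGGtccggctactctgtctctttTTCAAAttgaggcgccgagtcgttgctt

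A promoter window, 250 bases before to 50 bases after the start, was found for 33 of the 41 kinesins, and a gene was counted when any of its windows held a match. The CHR letters were present in 10 of 14 mitotic kinesins, 1 of 11 transport kinesins and 1 of 8 other kinesins, against 19.5% of the 27305 genes in the promoter table. CCAAT was present in 10 of 14 mitotic, 4 of 11 transport and 3 of 8 other kinesins, against 39.7% of all genes. Both stood together in 9 of 14 mitotic kinesins, against 9.02% of all genes. An E2F match was found in 1 mitotic kinesin, KIF15, where its letters directly precede those of the CHR, in 0 of 11 transport kinesins and in 1 of 8 other kinesins, KIF25, against 5.5% of all genes. Within the mitotic class the CHR letters did not separate the genes by response, with 5 of 7 among those that fell and 5 of 7 among those that did not pass the test. CHR and CCAAT stood together in 4 of the 7 that fell and 5 of the 7 that did not pass. Over all entries that fell, the CHR letters were present in 18.7% of the 2092 with a window. The CHR match of KIF18B begins at base 3 counted from the start, and those of KIF20B at bases 25 and 31, outside the stretches printed. KIF20A, KIF2A, KIF2B and KIF2C held none of the CHR letters searched, and a match is a description of the letters and not of binding.

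Expression is given as the deposited log2 values made with RMA, and each log2 fold change is the CDK4/6 siRNA mean less the control siRNA mean, with 3 arrays in each group. Array medians lay between 5.77 and 5.80, and the correlation of one array with another, taken over genes, was 0.998 inside a group and 0.991 to 0.994 from one group to the other. Of the siRNA targets, CDK6 fell by 1.56 on the log2 scale (limma adjusted p = 8.97e-06) and CDK4 fell by 0.69 (limma adjusted p = 0.000455). The 5 epithelial markers EPCAM, CDH1, KRT8, KRT18 and CLDN7 had means of 10.17 to 13.27, with 2 higher (KRT8 and KRT18) and 1 lower (CDH1) in the CDK4/6 siRNA arrays. The 10 measured markers of other cell types had means of 3.83 to 7.84, and 1 of them, COL1A1, was called (-0.49); their part in the results was not tested. The hybridisation spike-ins averaged 10.15 in the CDK4/6 siRNA arrays and 10.25 in the control siRNA arrays, so scaling to them moves the median of all genes to 0.11. RMA sets the arrays to one distribution, so each change below is relative to the other genes of the array.

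Of the 41 kinesins, 12 fell and 2 rose at a limma adjusted p under 0.05, and 27 did not pass. In bulk RNA, fewer cells in mitosis and less mRNA per mitotic cell cannot be told apart. Over all gene entries 26.8% were called, 12.8% lower and 14% higher. The median log2 fold change of the kinesins was -0.15, against -0.0012 for all entries, and single kinesins ran from -0.56 for KIF20A to 0.76 for KIF9. No kinesin changed 2-fold (0 of 41), and only 111 of the 20875 entries did. The groups did not overlap in 20 of 41 kinesins, against 40.8% of all entries. Scaling to the spike-ins instead, 8 kinesins were lower and 6 higher, at a median of -0.043 against 0.11 for all entries. The shares of all entries called with that scaling are not given. No count with it, here or below, is therefore set against a background. The 9 kinesins with a mean level under 6, which include KIF2B, KIF5A, KIF17 and KIF24, gave no call (0 of 9). Among the 32 kinesins with a mean level of 6 or more, 14 were called (43.8%), close to the 42.6% of all entries at that level. The 12 falls were 37.5% of these kinesins, against 19.9% of entries lower, and the 2 rises were 6.25%, against 22.7% of entries higher. KIF1B is among the falls although its probe sets disagree in direction. Left out, a choice made after seeing the data, 11 falls remain among 31 kinesins (35.5%). The groups did not overlap in 19 of these 32 kinesins, a share of 59.4%, against 60.7% of entries.

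**Figure D1:**
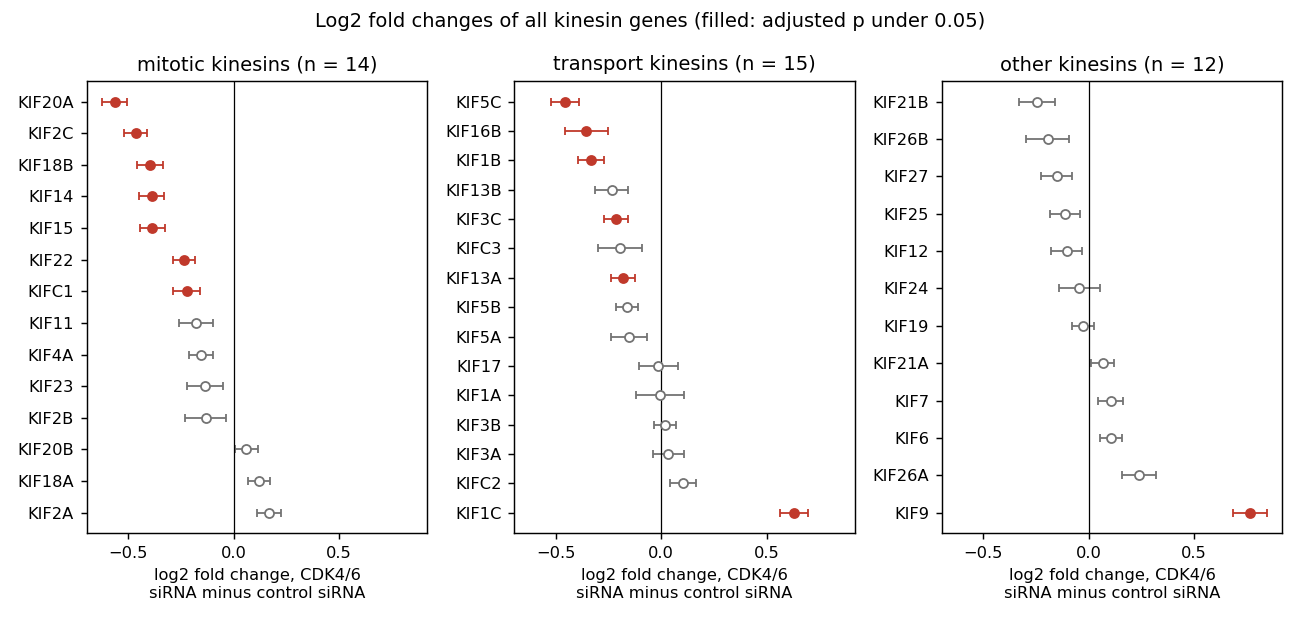
Log2 fold change (CDK4/6 siRNA minus control siRNA, x axis) of all 41 kinesin genes in 3 panels by class, with bars for the standard error and filled red points for a limma adjusted p under 0.05. The mitotic panel holds 7 filled points, all below 0, the transport panel 5 below and 1 above 0, and the other panel 1, KIF9, above 0.

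Among the 14 mitotic kinesins 7 were called lower and 0 higher, and the class median was -0.20. Over all entries 12.8% were lower, and 19.9% at a mean level of 6 or more, where 13 of the 14 lie. Of the 7 that did not pass, 4 had values below 0 and 3 above. The falls were modest, and the gene that moved furthest was left at 67.6% of its control level. With the spike-in scaling 5 fell and 2, KIF2A and KIF18A, rose, with a class median of -0.092 against 0.11 for all entries.

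Among the motors of cytokinesis, KIF20A, which carries the Aurora B complex to the central spindle, had 9.78, 9.81 and 9.89 in the CDK4/6 siRNA arrays and 10.41, 10.32 and 10.44 in the control siRNA arrays. It fell by 0.56 on the log2 scale (SE 0.060, limma adjusted p = 0.000268). KIF14, which acts with citron kinase at the midbody, had 9.10, 9.12 and 9.22 in the CDK4/6 siRNA arrays and 9.50, 9.51 and 9.59 in the control siRNA arrays, a fall of 0.39 (SE 0.059, limma adjusted p = 0.0014). For both genes the CDK4/6 siRNA arrays all lay below the control arrays. KIF23, a subunit of the centralspindlin complex, had 9.06, 9.24 and 9.39 in the CDK4/6 siRNA arrays and 9.44, 9.36 and 9.29 in the control siRNA arrays. Its groups overlapped, and it did not pass (-0.13, limma adjusted p = 0.312). KIF20B, which acts late in abscission, had 8.05, 8.07 and 8.13 in the CDK4/6 siRNA arrays and 8.05, 8.03 and 7.99 in the control siRNA arrays (0.059, limma adjusted p = 0.502).

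Of the motors that shorten microtubules or dampen their growth, KIF2C, a depolymerase at centromeres, had 10.19, 10.14 and 10.23 in the CDK4/6 siRNA arrays and 10.68, 10.67 and 10.60 in the control siRNA arrays. It fell by 0.46 (SE 0.055, limma adjusted p = 0.000436). KIF18B, which limits astral microtubules, had 9.03, 9.03 and 9.18 in the CDK4/6 siRNA arrays and 9.49, 9.45 and 9.49 in the control siRNA arrays, a fall of 0.40 (SE 0.061, limma adjusted p = 0.00159). Neither gene's groups overlapped. Their relatives did not pass the test in either direction. KIF18A, which damps chromosome oscillations, had 9.43, 9.50 and 9.48 in the CDK4/6 siRNA arrays and 9.33, 9.38 and 9.35 in the control siRNA arrays (0.12, limma adjusted p = 0.141). KIF2A, which acts at spindle poles and also outside mitosis, had 9.54, 9.51 and 9.59 in the CDK4/6 siRNA arrays and 9.34, 9.44 and 9.36 in the control siRNA arrays (0.17, limma adjusted p = 0.0573). Both were above their control arrays in every CDK4/6 siRNA array without passing the test. KIF2B was dim, with a mean of 4.57, and gave -0.13 (limma adjusted p = 0.384).

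Of the motors that assemble the spindle, KIF15, which helps to keep the poles apart, had 7.48, 7.52 and 7.58 in the CDK4/6 siRNA arrays and 7.96, 7.94 and 7.84 in the control siRNA arrays. It fell by 0.39 (SE 0.059, limma adjusted p = 0.00154). KIFC1, a minus-end motor that focuses poles, had 8.80, 8.83 and 8.95 in the CDK4/6 siRNA arrays and 9.16, 9.08 and 9.01 in the control siRNA arrays, a fall of 0.22 (SE 0.065, limma adjusted p = 0.0336). The KIFC1 groups lay close together, and its call was lost with the spike-in scaling (-0.11) and without CDK4/6 siRNA replicate 1 or 2 or control siRNA replicate 1 or 2 (-0.27 to -0.18 over the 6 fits that each leave out 1 array). KIF11, the motor that pushes the poles apart, had 8.35, 8.58 and 8.66 in the CDK4/6 siRNA arrays and 8.73, 8.72 and 8.67 in the control siRNA arrays. It did not pass (-0.18, limma adjusted p = 0.151), and the CDK4/6 siRNA arrays were spread more widely (SD 0.16) than the control siRNA arrays (SD 0.035). Of the chromokinesins, which act on chromosome arms, KIF22 had 7.98, 7.97 and 8.01 in the CDK4/6 siRNA arrays and 8.19, 8.21 and 8.27 in the control siRNA arrays, a fall of 0.24 (SE 0.053, limma adjusted p = 0.00964). KIF4A, which also works at the central spindle, gave -0.15 (limma adjusted p = 0.085).

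**Figure D2:**
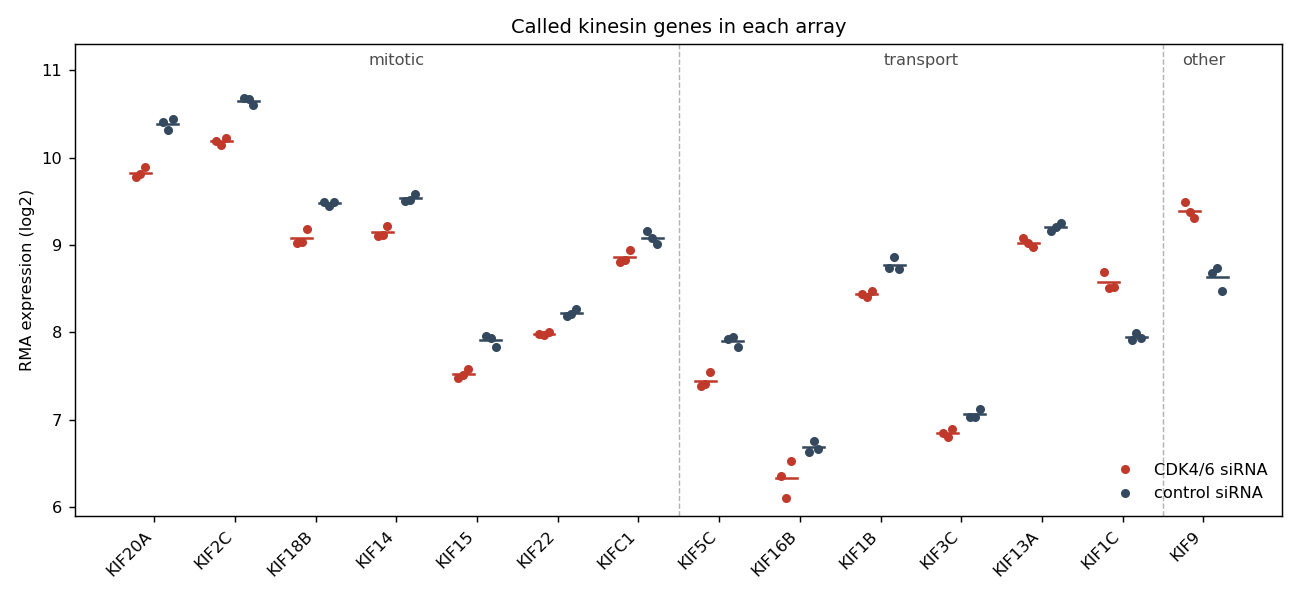
RMA expression (log2, y axis) of the 14 called kinesins in each array, with CDK4/6 siRNA in red left of control siRNA in dark blue and bars at the group means. The groups do not overlap in any of the 14 genes, but these were chosen as called on the same values, so this is not a further result. KIF1C and KIF9 have CDK4/6 siRNA arrays above their control arrays.

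The differences between related mitotic motors were compared directly, by the per-array difference of their log2 values, in 9 pairs chosen after the values were seen. KIF2C minus KIF2A was lower in the CDK4/6 siRNA arrays than in the control siRNA arrays by a log2 difference of -0.63 (SE 0.034). KIF20A minus KIF20B differed by -0.62 (SE 0.048), KIF18B minus KIF18A by -0.51 (SE 0.056) and KIF20A minus KIF23 by -0.43 (SE 0.087). KIF23 minus KIF20B differed by -0.19 (SE 0.074). KIF15 minus KIF11 differed by -0.21 (SE 0.069), and KIF22 minus KIF4A by -0.084 (SE 0.055). The other pairs set the dim KIF2B against KIF2C or KIF2A and are not read. The groups did not overlap in 6 of the 7 pairs without KIF2B, the exception being KIF22 and KIF4A. Most of these pairs set a gene that fell beside one that did not pass, so the choice itself favoured such a separation. No background share was taken for pairs, and single entries at a mean level of 6 or more did not overlap in 60.7%. The count is therefore not read as a result. In these 6 pairs an exact permutation test, two-sided, gave p = 0.1 (0.112 adjusted over the 9 pairs), the smallest that 3 arrays against 3 allow, and 0.2 for KIF22 and KIF4A.

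Among the 15 transport kinesins 5 were called lower and 1 higher, and the class median was -0.16. The falls were 33.3% of the class, against 12.8% of all entries, and 38.5% of the 13 members at a mean level of 6 or more, against 19.9% of entries there. Among the 5 is KIF1B, without which 4 of 14 were lower, and with the mean of all probe sets 4 were lower and 2 higher, at a median of -0.0457 for the transport kinesins. The spike-in scaling left 3 lower and 1 higher, at a median of -0.053 against 0.11 for all entries. Leaving out each array in turn gave 2 to 4 that fell. KIF5C is a heavy chain of conventional kinesin that is enriched in neurons. It had 7.39, 7.41 and 7.54 in the CDK4/6 siRNA arrays and 7.93, 7.95 and 7.83 in the control siRNA arrays, a fall of 0.46 (SE 0.065, limma adjusted p = 0.00103). KIF5B, the heavy chain used in most cells, had 11.45, 11.48 and 11.52 in the CDK4/6 siRNA arrays and 11.61, 11.68 and 11.64 in the control siRNA arrays. Its groups did not overlap, but it did not pass (-0.16, limma adjusted p = 0.0548). KIF5A, a further heavy chain and another neuronal gene, was dim and gave -0.15 (limma adjusted p = 0.249).

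Motors of vesicles and endosomes had calls in both directions. KIF1C, which carries dense core vesicles and integrins, had 8.70, 8.51 and 8.52 in the CDK4/6 siRNA arrays and 7.92, 7.99 and 7.94 in the control siRNA arrays. It rose by 0.63 (1.55-fold, SE 0.066, limma adjusted p = 0.000263). KIF16B, a motor of early endosomes, had 6.36, 6.11 and 6.53 in the CDK4/6 siRNA arrays and 6.64, 6.76 and 6.67 in the control siRNA arrays, a fall of 0.35 (SE 0.0998, limma adjusted p = 0.0286). KIF13A, which moves recycling endosomes, had 9.08, 9.02 and 8.98 in the CDK4/6 siRNA arrays and 9.15, 9.21 and 9.25 in the control siRNA arrays, a fall of 0.18 (SE 0.057, limma adjusted p = 0.0451). KIF16B was called without CDK4/6 siRNA replicate 3 but with none of the other 5 arrays left out (-0.45 to -0.24), and KIF13A lost its call without any of the 6 arrays (-0.21 to -0.16). KIF13B, a relative of KIF13A, gave -0.24 (limma adjusted p = 0.0568), and the neuronal vesicle motor KIF1A gave -0.0074 (limma adjusted p = 0.975).

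The motor of intraflagellar transport, formed by KIF3A and KIF3B, did not pass. KIF3A gave 0.034 and KIF3B 0.016 (limma adjusted p = 0.798 and 0.874). KIF3C, which pairs with KIF3A in neurons, had 6.85, 6.81 and 6.90 in the CDK4/6 siRNA arrays and 7.03, 7.03 and 7.13 in the control siRNA arrays. It fell by 0.21 (SE 0.057, limma adjusted p = 0.0232), a call lost with the spike-in scaling (-0.10) and without CDK4/6 siRNA replicate 1 or 2 or control siRNA replicate 2 or 3 (-0.24 to -0.18). KIF17, another ciliary and dendritic motor, gave -0.013. The minus-end motors KIFC2 and KIFC3 gave 0.11 and -0.20 and did not pass.

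Of the 12 other kinesins, which include ciliary and non-motile members, 1 rose and 0 fell, against the 26.8% called among all entries. But 6 of the 12 have a mean level under 6, where none of the kinesins was called. Among the 6 at a mean level of 6 or more, 1 was called (16.7%), against 42.6% of entries there. KIF9, known from motile cilia and sperm flagella, had 9.49, 9.38 and 9.31 in the CDK4/6 siRNA arrays and 8.68, 8.73 and 8.48 in the control siRNA arrays. It rose by 0.76 (1.70-fold, SE 0.081, limma adjusted p = 0.000271), the widest change of any kinesin. The plain-name probe set of KIF9 did not pass, as given below. KIF7, the Hedgehog pathway kinesin of the ciliary tip, gave 0.10, and KIF27, its relative, gave -0.15. KIF24, which trims centriolar microtubules, gave -0.045, and KIF19, which shortens ciliary microtubules, -0.026. KIF6, a gene of ependymal cilia, gave 0.10. KIF26A and KIF26B, which lack the usual ATPase activity, gave 0.24 and -0.19. KIF21A and KIF21B, which restrain microtubule growth, gave 0.067 and -0.24, and KIF12 and KIF25 gave -0.11 and -0.11. None of these 11 passed, with limma adjusted p between 0.0606 and 0.802.

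Several probe sets were present for 26 of the 41 genes, and they did not always give one answer. Tested over all 42892 probe sets, of which 21% were called, both KIF2C probe sets fell, by 0.46 and 0.49, and both KIF14 probe sets fell, by 0.39 and 0.43. KIF1B, a motor of mitochondria and synaptic vesicle precursors, was split. Its brightest probe set had 8.44, 8.40 and 8.47 in the CDK4/6 siRNA arrays and 8.73, 8.87 and 8.72 in the control siRNA arrays, and fell by 0.33 (SE 0.061, limma adjusted p = 0.00363 over the gene entries). The next 2 probe sets of KIF1B, at means of 7.93 and 7.59, rose by 0.65 and 0.55 (limma adjusted p = 0.000548 and 0.00253 over probe sets), and the dimmest gave -0.12. With the mean of its 4 probe sets KIF1B turned to 0.19 and was called higher (limma adjusted p = 0.0325), so no single direction holds for the gene.

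For KIF1C, the second probe set rose by 0.41 and another, dim one gave 0.054. For KIF9, all 3 probe sets whose names carry the suffix for probes that may also match other sequences rose (0.76, 0.52 and 0.48). Its plain-name probe set, at 0.20, missed the threshold (limma adjusted p = 0.229 over probe sets). A second KIF5C probe set fell by 0.35, and its dim plain-name probe set gave 0.11. Of the KIF5B probe sets 1 of 3 fell, by 0.22. The second KIF22 probe set gave 0.037 and did not pass, and the call of KIF22 was lost with the mean of both (-0.10) and with the spike-in scaling (-0.13). The other KIF23 probe set is dim, with a mean of 3.53, and its change is not read. A second KIF16B probe set, dim at a mean of 5.33, gave -0.075 and did not pass (limma adjusted p = 0.628 over probe sets). For KIF3C the second gave -0.20 and also missed the threshold (limma adjusted p = 0.054 over probe sets). The 5 other probe sets of KIF13A gave -0.27 to 0.021, none past the threshold, and over all probe sets the bright one was not called either (limma adjusted p = 0.0701).

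**Figure D3:**
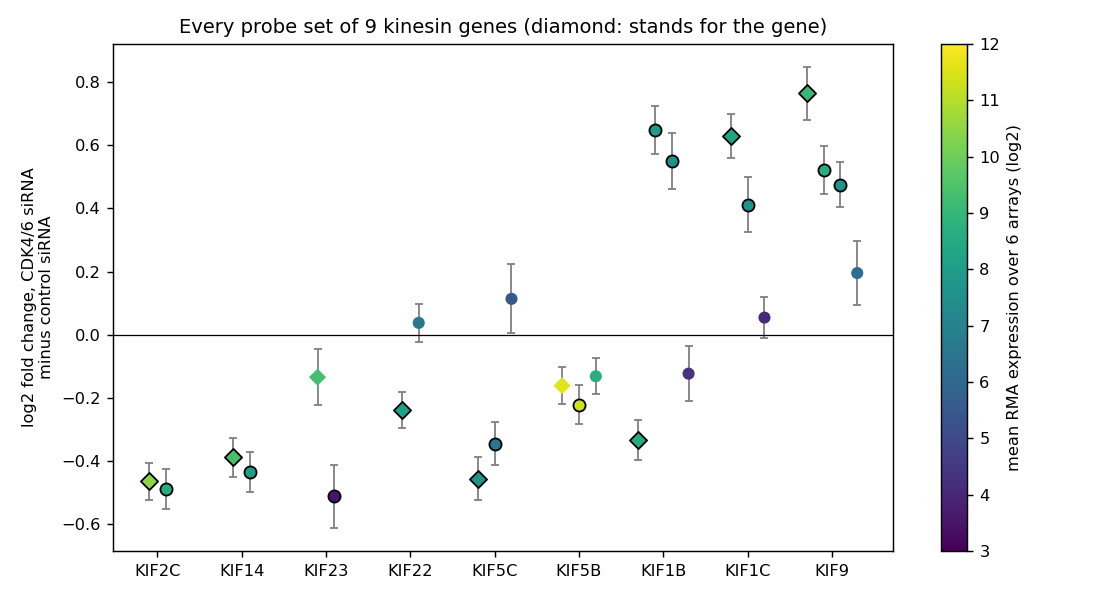
Log2 fold change (CDK4/6 siRNA minus control siRNA, y axis) with its standard error for every probe set of 9 kinesin genes, coloured by the mean RMA expression over the 6 arrays, with diamonds for the probe set that stands for the gene and a black edge where it was called over all probe sets. KIF2C and KIF14 have both points near -0.4 to -0.5, while KIF1B has called points on both sides of 0.

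The mitotic class was then set against the transport class. Per array, the mean of the mitotic kinesins was 8.62, 8.65 and 8.74 in the CDK4/6 siRNA arrays and 8.88, 8.89 and 8.87 in the control siRNA arrays, a difference of -0.21. The mean of the transport kinesins was 7.50, 7.55 and 7.53 in the CDK4/6 siRNA arrays and 7.61, 7.64 and 7.64 in the control siRNA arrays, a difference of -0.10. Neither class overlapped between the groups, but no background was taken for means over several genes, so this is not read as a result. The mitotic mean minus the transport mean was 1.12, 1.11 and 1.21 in the CDK4/6 siRNA arrays and 1.28, 1.24 and 1.23 in the control siRNA arrays, with CDK4/6 siRNA replicate 3 close to the control arrays. Only changes in this value between arrays can be read, since levels of different probe sets are not on one scale. The mitotic median less the transport median was -0.039, and it ran from -0.088 to -0.021 over the fits that each leave out 1 array, with no p given for a score over the members. It was -0.15 with the mean of all probe sets and -0.23 on plain-name probe sets, which cover 10 mitotic and 15 transport kinesins. These leave out KIF20B and KIF18A, which had values above 0, and KIF22 and KIFC1, which fell. They also read KIF23 by its dim probe set, so the -0.23 is not the same contrast as the -0.039. At a mean level of 6 or more, the groups did not overlap in 84.6% of mitotic and 53.8% of transport kinesins, against 60.7% of entries, so the transport share was not above the background.

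**Figure D4:**
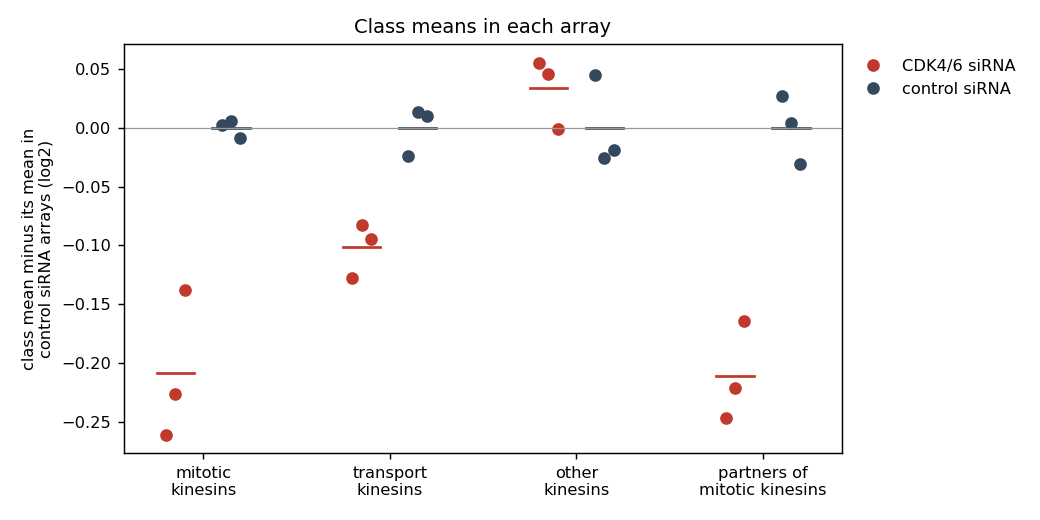
Mean of each class in each array minus the mean of that class over the control siRNA arrays (log2, y axis), with CDK4/6 siRNA in red left of control siRNA in dark blue and bars at the group means. The mitotic kinesins and their partners lie at -0.26 to -0.14 and -0.25 to -0.16 in the CDK4/6 siRNA arrays, the transport kinesins at -0.13 to -0.083, and the other kinesins overlap with their controls.

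Of 20 measured genes whose proteins work with mitotic kinesins, 11 fell and 1, MAPRE1, named after its value was seen, rose (median -0.19). All 20 have a mean level of 6 or more, and 55% of them fell, against 19.9% of entries there. The spike-in scaling left 6 lower and 1 higher, at a median of -0.081 against 0.11 for all entries. SPAG5 (astrin), a spindle and kinetochore protein (-0.49), KNL1, the kinetochore scaffold (-0.43), ANLN, the cytokinetic ring scaffold (-0.60), and NUSAP1, which bundles spindle microtubules (-0.39), all fell (limma adjusted p = 0.000587 to 0.00176). CENPE, a kinesin of kinetochores that the symbol rule leaves out, had 8.55, 8.52 and 8.54 in the CDK4/6 siRNA arrays and 8.88, 8.92 and 8.84 in the control siRNA arrays, a fall of 0.34 (SE 0.052, limma adjusted p = 0.00149). STARD9, a further kinesin outside the rule, gave -0.14 (limma adjusted p = 0.166). The mean of the partners differed by -0.21, and the share of cells in mitosis was not measured here, so its part in these falls was not tested.

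Of 6 light chain and accessory genes 3 fell and 1 rose, against 26.8% called over all entries and 42.6% at a mean level of 6 or more. Of these 6, 1 has a mean level under 6. KIFAP3, which joins KIF3A and KIF3B to cargo, fell by 0.47 (SE 0.055, limma adjusted p = 0.000432), while its motor partners did not pass. KIFBP, which binds kinesin motor domains and blocks their attachment to microtubules, rose by 0.53 (1.44-fold, SE 0.065, limma adjusted p = 0.000532). KLC3 and KLC1, light chains of conventional kinesin, fell by 0.20 and 0.16 (limma adjusted p = 0.0236 and 0.0481). Both calls were lost with the spike-in scaling. KLC1 also lost its call without any 1 of the 6 arrays (-0.17 to -0.14), KLC3 without any of the 3 CDK4/6 siRNA arrays or control siRNA replicate 3 (-0.22 to -0.17), and KLC1 turned to 0.35 on its brightest plain-name probe set (limma adjusted p = 0.00746).

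The 16 cargo adaptors had 4 lower and 1 higher, at a median of 0.0065. The share called, 31.2%, was near the 26.8% of all entries. It is not set against the 42.6% of entries at a mean level of 6 or more, since 3 of the 16 lie under 6. The scaffolds SPAG9 (-0.60) and MAPK8IP3 (-0.55) fell, while TRAK2, which links kinesin to mitochondria, rose by 0.39 (limma adjusted p = 0.000417 to 0.00458). Its relative TRAK1, named after its value was seen, fell by 0.33 on its brightest probe set (limma adjusted p = 0.00488). The plain-name probe set of MAPK8IP3 gave -0.0043 and did not pass. Of 20 genes of dynein, which walks the other way, and its partner dynactin, 4 were lower and 5 higher, at a median of 0.011. The share called, 45%, was near the 42.6% of entries at a mean level of 6 or more, though 1 of the 20 lies under 6. NDE1, a dynein cofactor, fell by 0.82 (SE 0.061, limma adjusted p = 8.24e-05), and DCTN3 (-0.42) and DYNLRB1 (-0.32) fell too. The 5 that rose, named after their values were seen, were DYNLL2, DYNC1LI1, ACTR10, DYNLL1 and DCTN5. The dynein regulator PAFAH1B1 fell by 0.54 on its brightest probe set and turned to 0.21 with the mean of its 4 probe sets. With the mean of its probe sets DYNLRB1 lost its call (-0.12).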

How the data were processed

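The study's 6 arrays are used, 3 per group. The deposited values are log2 expression, and per the submitters' processing notes the authors used RMA, whose version is not given in the sources used here. RMA equalises array distributions, which hides any change in the total RNA of a cell, and dim changes are compressed. The number of arrays limits the precision.

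Of 54675 probe sets, 62 controls and 11777 without a symbol were left out. Probe sets were grouped by their platform symbol entry (20875 entries, 19775 with 1 symbol and 1100 with several), and the brightest stood for each. The comparison used limma 3.58.1 (functions lmFit and eBayes; R 4.3.3), with Benjamini-Hochberg adjustment over all entries and 0.05 as the threshold. Single values were compared by an exact permutation test in scipy 1.17.1. No array was dropped or imputed.

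Members and lists were chosen with earlier results of these data known, and classes by textbook role. The rule for names gives every kinesin, per-array values for called ones, and up to 4 genes per partner list with the smallest p, of which 1 is not reported here. The fitting step was tested on simulated data. Both groups carry the same replicate numbers, but no label ties a number to a shared day, so no block was used. Alternatives were a replicate block, median centring, cyclic loess, spike-in scaling, a filter on dim entries, other choices of probe set, trend and robust moderation, a threshold of 0.01, KIF2A left out of the mitotic class and each array left out. Figures were drawn with matplotlib 3.10.9.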

Additional observations from a re-analysis of the deposited data

How the results depend on the processing

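With each array left out the mitotic class kept 6 or 7 falls and 0 rises, and with the spike-in scaling it had 5 falls and 2 rises. KIF20A, KIF2C, KIF14, KIF15, KIF18B and KIF1C kept their calls in all 16 alternatives. Rises among all kinesins numbered 4 with median centring, 4 without the dimmest 25%, 4 with the mean of all probe sets, 6 with the spike-in scaling and 1 on plain-name probe sets. Mitotic rises numbered 1 with median centring, 1 without the dimmest 25% and 1 with trend and robust moderation. With the spike-in scaling the medians were -0.043 for all kinesins, -0.092 for mitotic, -0.053 for transport and 0.073 for other kinesins, and 0.049 for the epithelial markers. With that scaling 3 transport kinesins, 1 light chain gene and 6 mitotic partners fell, and 2 light chain genes and 4 adaptors rose. With the mean of all probe sets the medians were -0.10 for all kinesins, -0.0457 for transport, 0.0018 for other kinesins and 0.030 for light chain genes, the mitotic median less the transport one was -0.15, 2 transport kinesins rose, and 1 light chain gene, 2 adaptors and 2 dynein genes fell. KIF1B (0.19), KLC1 (0.12) and PAFAH1B1 (0.21) then changed sign. On plain-name probe sets, which leave out 4 of the 14 mitotic kinesins (KIF20B, KIF18A, KIF22 and KIFC1), the mitotic median was -0.39 and lay below the transport one by a difference of -0.23, with 3 transport kinesins, 7 of 13 mitotic partners, 2 adaptors and 2 dynein genes lower and 2 light chain and 3 dynein genes higher, while KIF5C (0.11) and KLC1 (0.35) changed sign. Cyclic loess gave a transport median of -0.19. At a threshold of 0.01, 2 transport kinesins and 1 light chain gene fell, and 3495 entries were called in place of 5587. Leaving out each array gave medians of -0.16 to -0.099 for all kinesins and -0.072 to 0.019 for other kinesins, a difference of mitotic and transport medians of -0.088 to -0.021, 2 to 4 transport falls, 1 to 2 light chain falls and 1 to 2 rises, and 1 to 2 adaptor rises. The cause of these shifts was not tested.

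The replicate numbers did not pair the arrays: same-numbered arrays had correlations of deviations of -0.0080, -0.12 and -0.0036. With the replicate number as a block, 11 kinesins fell and 3 rose, 6 of the falls mitotic, and KIFC1 and KIF13A lost their calls (limma adjusted p = 0.0725 and 0.102). Leaving out KIF1B, chosen after seeing the data, gave 11 kinesin falls, 4 transport falls and a difference of medians of -0.043. Dim probe sets, under a mean of 6, limit what can be seen for 9 kinesins.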
